A study of Mus musculus with 8 samples.

Results

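RNA of the whole fetal testis was compared between 1 library from a Dnmt3C IAP/IAP mouse sample, called the mutant library here, and 1 from a Dnmt3C IAP/WT sample, called the control library, both at 16.5 days post coitum (dpc). Both were chosen by genotype and age from their titles, which makes 2 of the 8 libraries of the series. The other libraries, used here only for comparison, were 1 mutant and 1 control at 10 days post partum (dpp) and 2 of each genotype at 20 dpp. The homozygotes carry the IAP insertion, a copy of an endogenous retrovirus, on both alleles of Dnmt3c. The controls are not wild type, since they carry it on 1 allele, and all animals were males on a hybrid background of the strains C3H/HeJ and C57BL/6J. The labels do not say how many animals a library holds. With 1 library per genotype at 16.5 dpc no test of the genotype was possible, and every ratio there compares a pair of libraries, with a 95% interval that covers counting error only.

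Male germ cells lose most of their DNA methylation early in embryonic life and regain it in the fetal testis, while they are arrested as gonocytes. The de novo methyltransferase DNMT3A, its catalytically inactive partner DNMT3L and the piRNA pathway, which uses small RNAs to find transposon sequences, take part in this, and DNMT3C is known for methylating promoters of young transposons in the male germ line. At 16.5 dpc this remethylation is under way, and meiosis begins only after birth.

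The pair held 17709 genes and 806 repeat families, from 74312625 gene reads in the mutant library and 57166311 in the control library. Repeat families took 2.96% and 3.11% of the counted reads. Dnmt3c has no value here (not analysed here), so the genotype was not checked against its own transcript. The transcripts of the fetal testis were present in both libraries: normalised reads of Ddx4, the germ cell RNA helicase, were 14469 in the mutant and 11778 in the control, those of Clu, abundant in Sertoli cells, 37293 and 37454, and those of Cyp17a1, the androgen-producing enzyme of fetal Leydig cells, 77526 and 78006. The median log2 ratio of mutant over control was 0.00 over genes, and 93.1% of genes lay within 1.5-fold of equality. A feature was called listed where it differed by at least 2-fold, its interval excluded a ratio of 1 and both libraries together held at least 50 reads. Of the genes 88 were listed higher in the mutant library (0.497%) and 42 lower (0.237%), 130 in all (0.734%), and 102 of the 130 had under 200 reads. The same rule applied to replicates of 1 genotype at 20 dpp listed 6.67% of genes between the mutants and 5.52% between the controls. At 1.5-fold, 403 genes were higher (2.28%) and 180 lower (1.02%), or 3.29% together.

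**Figure D1:**
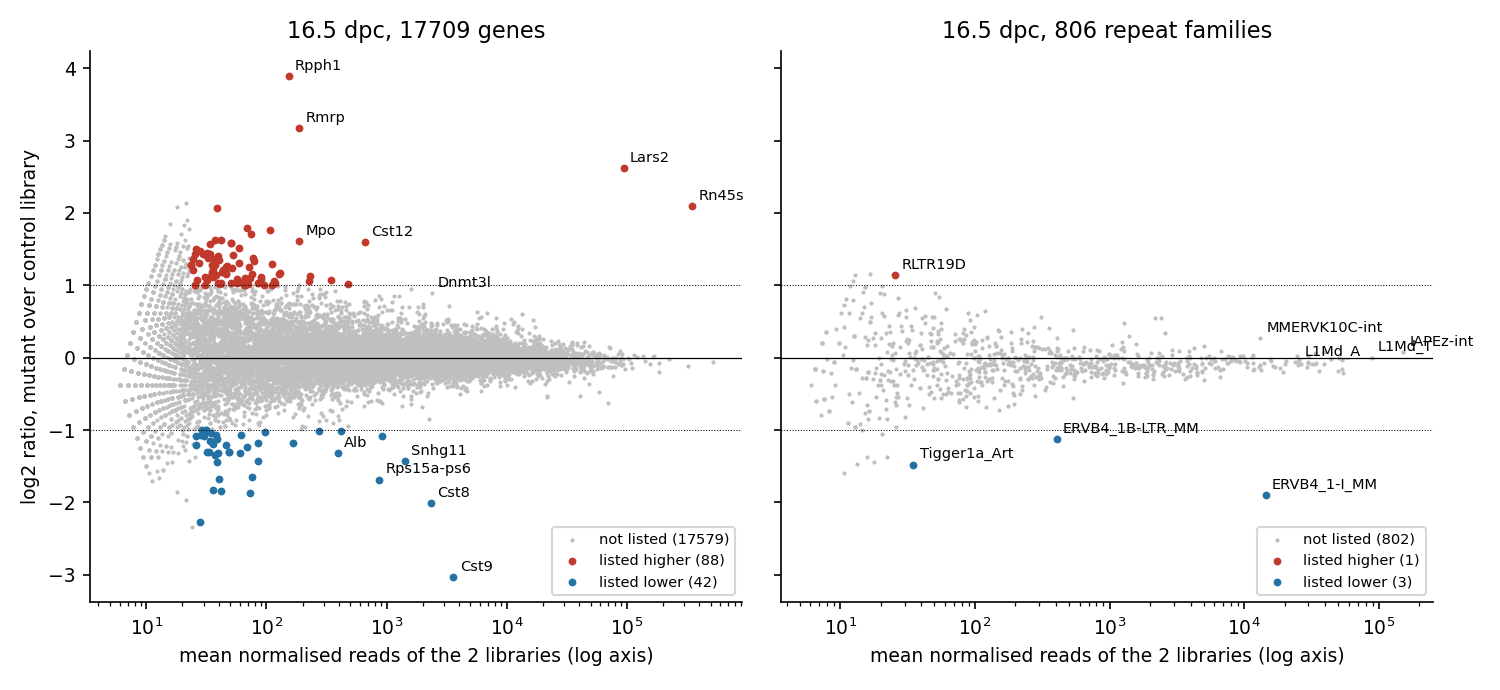
Log2 ratio of mutant over control library at 16.5 dpc (vertical axis) against the mean normalised reads of both libraries (horizontal log axis), for 17709 genes (left) and 806 repeat families (right). Red and blue points are the listed features, 88 and 42 genes, and 1 and 3 families. Dotted lines mark a 2-fold difference.

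The lowest ratios among genes with at least 1000 reads were those of Cst9 and Cst8, in a cluster of cystatin genes on chromosome 2. Both are known as cystatin genes of Sertoli cells and the male tract. They were 8.19-fold and 4.03-fold lower in the mutant library, while their neighbour Cst12 was 3.03-fold higher. The 300 bases around the start of each, from RefSeq on GRCm38.p6 (250 before to 50 after the start, the plus strand), are shown because these neighbours differed in opposite directions. Capitals mark each CG, the dinucleotide that DNA methyltransferases modify.
Cst9, chr2:148834897-148835196: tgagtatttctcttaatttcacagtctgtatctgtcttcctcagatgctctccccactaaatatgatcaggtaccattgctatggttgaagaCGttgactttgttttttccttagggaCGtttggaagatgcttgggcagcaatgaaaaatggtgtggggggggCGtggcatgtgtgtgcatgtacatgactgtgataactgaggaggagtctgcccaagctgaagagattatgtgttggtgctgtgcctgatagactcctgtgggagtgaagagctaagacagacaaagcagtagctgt
Cst8, chr2:148798589-148798888: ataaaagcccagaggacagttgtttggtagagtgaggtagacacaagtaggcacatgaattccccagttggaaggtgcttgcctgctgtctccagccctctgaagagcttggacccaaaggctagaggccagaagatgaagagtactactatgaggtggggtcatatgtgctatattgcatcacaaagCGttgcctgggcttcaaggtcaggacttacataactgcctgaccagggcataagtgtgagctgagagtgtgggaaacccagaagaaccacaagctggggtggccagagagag
Cst12, chr2:148789115-148789414: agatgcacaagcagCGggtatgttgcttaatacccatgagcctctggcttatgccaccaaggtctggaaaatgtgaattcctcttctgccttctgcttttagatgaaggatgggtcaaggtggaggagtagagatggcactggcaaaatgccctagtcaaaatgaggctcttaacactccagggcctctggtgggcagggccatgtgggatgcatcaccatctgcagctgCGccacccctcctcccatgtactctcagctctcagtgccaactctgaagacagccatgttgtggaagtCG
The Cst9 and Cst12 windows held 3 CG each, a number reached by 76.7% of the 32851 promoters in the table, and the Cst8 window held 1, reached by 94.6%.

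Cst9 had 785.5 normalised reads in the mutant library and 6435 in the control (8.19-fold lower, interval 7.63 to 8.80). It was 16.5-fold lower in the mutant library at 10 dpp, and at 20 dpp the mutants, at 7574 and 5340, did not overlap the controls, at 24781 and 28424. Cst8 had 928.6 and 3741 normalised reads (4.03-fold lower, 3.76 to 4.32), and it too was lower at the later ages, by 2.49-fold at 10 dpp, with mutants at 382.5 and 161.6 and controls at 1183 and 942.2 at 20 dpp. Every mutant library was thus below every control library of its age for both genes.

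Not all cystatin genes of the cluster were lower in the mutant library. Cst11 was 3.19-fold lower at 16.5 dpc on few reads (22 and 54), and Cst13, with 27 and 39 reads, was 1.88-fold lower. Cst12 had 998.8 and 329.3 normalised reads (3.03-fold higher, 2.66 to 3.46), against 1.23-fold higher at 10 dpp. At 20 dpp its mutants had 48892 and 41937 and its controls 18625 and 21607. This was a log2 change of 1.17, beside a median of 0.91 over a list of 35 Sertoli cell genes at that age. Cst3, which encodes the secreted protease inhibitor cystatin C, had 16115 and 10591 (1.52-fold higher, 1.48 to 1.56) and 8030411F24Rik, a gene model between Cst11 and Cst12, was 1.74-fold higher. Nxt1 and Gzf1, a little further out, lay at ratios of 0.955 and 0.956. Cystatin genes are paralogs, so reads of similar stretches may be shared among them.

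**Figure D2:**
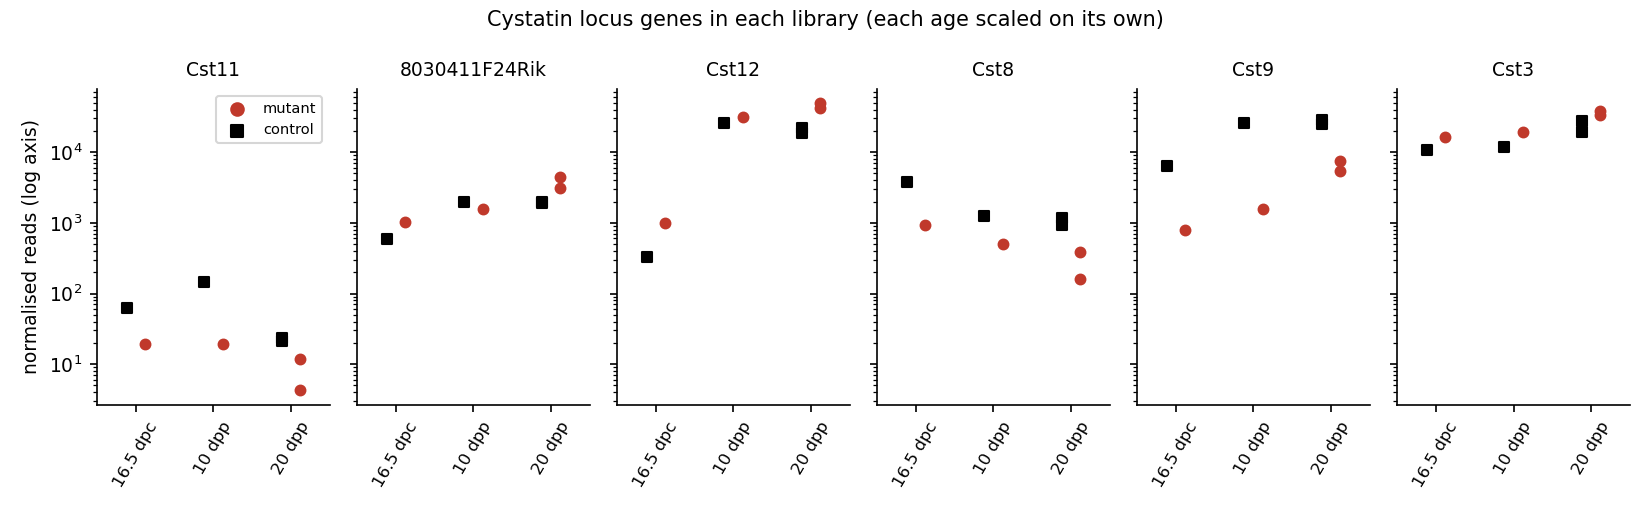
Normalised reads (log axis) of 6 genes of the cystatin cluster in each library, by age. Circles are mutant and squares control libraries, 1 of each at 16.5 dpc and 10 dpp and 2 of each at 20 dpp. Each age was scaled on its own, so levels compare within an age. Cst9 and Cst8 are lower in every mutant library, and Cst12 and Cst3 are higher in every mutant library than in the controls of the same age.

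The cystatin cluster lies 4.8 Mb from Dnmt3b on the mm10 map (chr2:153649450-153687730), the gene next to Dnmt3c and its closest relative. Of the 1398 measured genes of chromosome 2, 25 were listed (1.79%), against 101 of 16246 (0.622%) on the other chromosomes. Within 20 Mb on each side of Dnmt3b, 9 of 366 were listed (2.46%), against 16 of 1032 (1.55%) on the rest of the chromosome. With the Cst genes and 8030411F24Rik left out, 5 of 359 (1.39%) were listed within the 20 Mb. Of the genes with at least 1000 reads, 6 of 921 on chromosome 2 and 2 of 10481 on the other chromosomes were listed. Besides Cst9, Cst8 and Cst12, the listed genes with many reads on chromosome 2 were Snhg11, a long noncoding RNA that hosts small nucleolar RNAs, Olfr1033, an olfactory receptor gene, and Procr, the endothelial protein C receptor. Olfr1033 and Procr were chosen after their values were seen, for their number of reads, and Rn45s, which has no coordinates, is left out of these counts.

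Snhg11 had 774.1 and 2085 normalised reads (2.69-fold lower, 2.48 to 2.92) and lies 4.7 Mb beyond Dnmt3b. Procr, 2.1 Mb beyond it, had 636.3 and 315.6 (2.02-fold higher, 1.75 to 2.32). Olfr1033, far from it on the same chromosome, had 589.8 and 1245 (2.11-fold lower, 1.92 to 2.33). At 10 dpp Snhg11 was 1.88-fold lower, Olfr1033 1.34-fold lower and Procr 1.46-fold higher. Not all of these directions held at 20 dpp, an age at which the 35 Sertoli cell genes had a median log2 change of 0.91. Snhg11 was higher there in the mutants, at 1705 and 1826, than in the controls, at 775.9 and 954.4. Procr was higher too, at 366.8 and 401.9 against 85.7 and 184.6. The Olfr1033 mutants were far apart, at 1031 and 50.2, with controls at 612.6 and 471.6. Of genes closer to Dnmt3b, the ratio was 0.982 for Mapre1, a microtubule end-binding protein, 0.990 for Asxl1, a Polycomb-associated protein, and 0.839 for Commd7. Other genes near it were higher in the mutant library by at least 1.5-fold and short of 2-fold: Bpifb4 had 291.4 and 151.5 (1.92-fold, 1.57 to 2.37), Defb36, a defensin gene, 367.7 and 190.3 (1.93-fold, 1.61 to 2.33), and Rspo4, a secreted activator of Wnt signalling, 287.0 and 167.5 (1.71-fold, 1.41 to 2.10). These 3 were named after their values were seen. On a hybrid background, the insertion and strain differences linked to it on chromosome 2 cannot be told apart by this design. This limit also holds for chromosome 2 genes named below with other lists, among them Gpat2, Tfap2c, Sohlh1, Lrrn4 and Epb4.2.

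**Figure D3:**
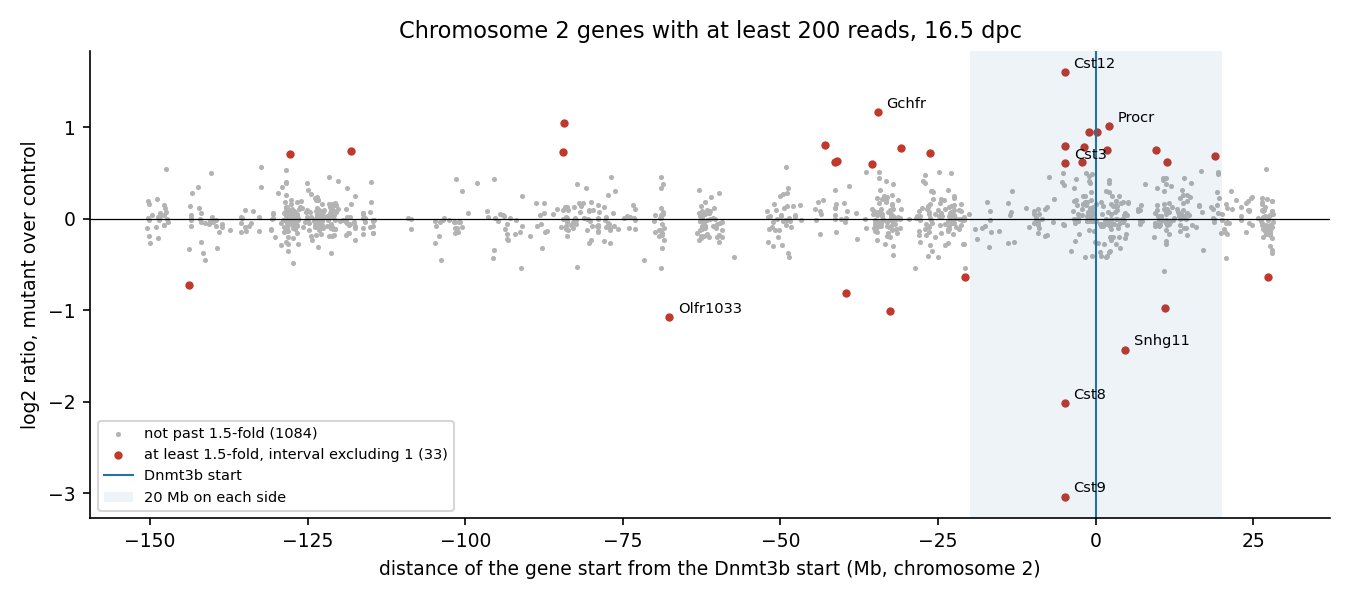
Log2 ratio of mutant over control library at 16.5 dpc for chromosome 2 genes with at least 200 reads, by the distance of their start from the start of Dnmt3b in Mb. Red points differ by at least 1.5-fold with an interval excluding 1 (33 genes), and the shaded band is 20 Mb on each side of Dnmt3b. The widest differences, Cst9, Cst8 and Cst12, stand together 4.8 Mb before Dnmt3b.

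Among the genes of the DNA methylation machinery, Dnmt3l stood apart. It had 3095 normalised reads in the mutant library and 1665 in the control (1.86-fold higher, 1.75 to 1.98), short of the 2-fold rule. It was the 1 gene of the 12 measured in this list beyond 1.5-fold, and the list's median log2 ratio was 0.00, as over all genes. The de novo enzyme Dnmt3a had 26878 and 23453 (1.15-fold higher, 1.13 to 1.17) and Dnmt3b 1445 and 1292 (1.12-fold higher, 1.04 to 1.21). The maintenance enzyme Dnmt1 was 1.05-fold higher, at 15666 and 14907. Its partner Uhrf1, with 9878 and 9795, the related Uhrf2, with 7581 and 7652, and Hells, a chromatin remodeller needed for methylation of repeats, with 9792 and 9941, were within 1.02-fold of equality. Of the demethylating enzymes, Tet2 was 1.19-fold lower (5309 and 6321), while Tet1 (4639 and 4693) and Tet3 (7627 and 7767) were within 1.02-fold. The methyl-CpG reader Mbd2 (3217 and 3300) was within 1.05-fold. At 10 dpp Dnmt3l had few reads, 43.9 and 52.9 normalised, with a log2 ratio of -0.27.

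Germ cell genes of several kinds leaned higher in the mutant library. Over 5 lists (piRNA pathway, gonocytes, spermatogonial stem cells, meiosis, and germline genes whose promoters are known to be silenced by methylation) 92 of 109 measured members were above equality, with a median log2 ratio of 0.31, beside 50.8% of all genes and a median of 0.00. At 1.5-fold 14 were higher (12.8% of the list, beside 2.28% of all genes) and 0 lower. Their summed normalised reads were 315509 in the mutant library and 254991 in the control. In bulk testis RNA, more germ cells and more of these transcripts per germ cell cannot be told apart. At 10 dpp 46 of the 109 were above equality, with a median of -0.03.

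In the piRNA pathway 28 of 30 measured genes were above equality, with a median log2 ratio of 0.39. Of the PIWI proteins, which carry the small RNAs, Piwil2 had 12736 and 8796 normalised reads (1.45-fold higher), Piwil4, the nuclear one of fetal germ cells, 7068 and 4813 (1.47-fold), and Piwil1, whose main expression is at later stages, 821.5 and 480.8 (1.71-fold, 1.52 to 1.92). Henmt1, which methylates piRNA ends, had 491.5 and 286.0 (1.72-fold, 1.48 to 2.00) and Gpat2, a mitochondrial protein of primary piRNA production, 4106 and 2492 (1.65-fold). Tdrd9 (1.55-fold) and Gtsf1 (1.51-fold), both needed for transposon silencing, completed the 5 genes beyond 1.5-fold. Tex15, a nuclear partner of PIWIL4 and the most read gene of the list, had 15230 and 11561 (1.32-fold). Wdr77 and Prmt5, which act together in arginine methylation and are expressed in most cells, were at ratios of 0.973 and 1.04.

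All 20 germline genes with methylation-dependent promoters were above equality, with a median log2 ratio of 0.41. Dpep3, a dipeptidase gene, had 470.4 and 224.5 normalised reads (2.10-fold higher, 1.78 to 2.48) and was the 1 listed member of the 5 lists. Tuba3b, a testis alpha-tubulin, had 2514 and 1504 (1.67-fold), and its near-identical copy Tuba3a was at 1.49-fold, so the split of reads between this pair is uncertain. Dazl, the RNA-binding protein of germ cells and the most read of this list, had 13557 and 11825 (1.15-fold). The Tuba3b window, from RefSeq on GRCm38.p6, is shown as an example of a promoter of this list beside the cystatin windows, with each CG in capitals.
Tuba3b, chr6:145615713-145616012: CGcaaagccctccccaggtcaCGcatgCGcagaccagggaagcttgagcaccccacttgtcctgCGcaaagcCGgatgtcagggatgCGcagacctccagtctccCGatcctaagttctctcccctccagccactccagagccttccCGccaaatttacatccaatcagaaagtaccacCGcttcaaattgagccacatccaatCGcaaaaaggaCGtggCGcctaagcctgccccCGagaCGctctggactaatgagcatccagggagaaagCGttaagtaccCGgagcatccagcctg
It held 16 CG, a number reached by 33.0% of all promoters in the table. The 19 matched promoters of this list had a median of 17 CG and those of the 13081 matched genes measured at 16.5 dpc a median of 18. No methylation was measured here.

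Gonocyte genes were above equality in 24 of 29 cases (median log2 ratio 0.26). Tfap2c, a transcription factor of germ cell specification, had 188.7 and 117.4 normalised reads (1.61-fold higher, 1.27 to 2.05), and Pou5f1, the pluripotency factor kept on in gonocytes, 4671 and 3941 (1.19-fold, 1.14 to 1.24). Meiotic genes were above equality in 23 of 28 (median 0.24), although meiosis has not begun at this age: Stag3, a meiotic cohesin subunit, had 6348 and 4762 (1.33-fold), Tex12, of the synaptonemal complex, 958.4 and 648.3 (1.48-fold) and Msh4, a crossover protein, 195.7 and 128.8 (1.52-fold, 1.21 to 1.92). Of the spermatogonial stem cell genes 15 of 21 were above equality (median 0.12), with members well on both sides. The transcription factors Sohlh1 (1075 and 659.7, 1.63-fold higher) and Egr4 (806.6 and 493.4, 1.63-fold higher) were among those above it, while the GDNF receptor Gfra1, with 502.9 and 652.9, had a ratio of 0.770.

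On the X chromosome, 21 of 22 genes of a list made mostly of germ cell genes were above equality (median log2 ratio 0.41). Ccnb3, a germline cyclin, had 784.6 and 512.7 normalised reads (1.53-fold higher) and Tktl1, a transketolase-like gene, 1532 and 1049 (1.46-fold). Rbmx, a widely expressed RNA-binding protein with the most reads in the list, had 13270 and 14642 (1.10-fold lower). Among genes with at least 1000 reads, 46 were higher by at least 1.5-fold and 17 lower. Of the 46, 7 were members of the 5 germ cell lists, and of the 17, 0, where 71 of the 11423 genes with at least 1000 reads belong to these lists. Others of the 46, named after their values were seen, included Kdm1b (8284 and 5420, 1.53-fold), a histone demethylase gene known from imprinting in oocytes, and Ddx43 (1388 and 814.7, 1.70-fold), a germ cell helicase gene.

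**Figure D4:**
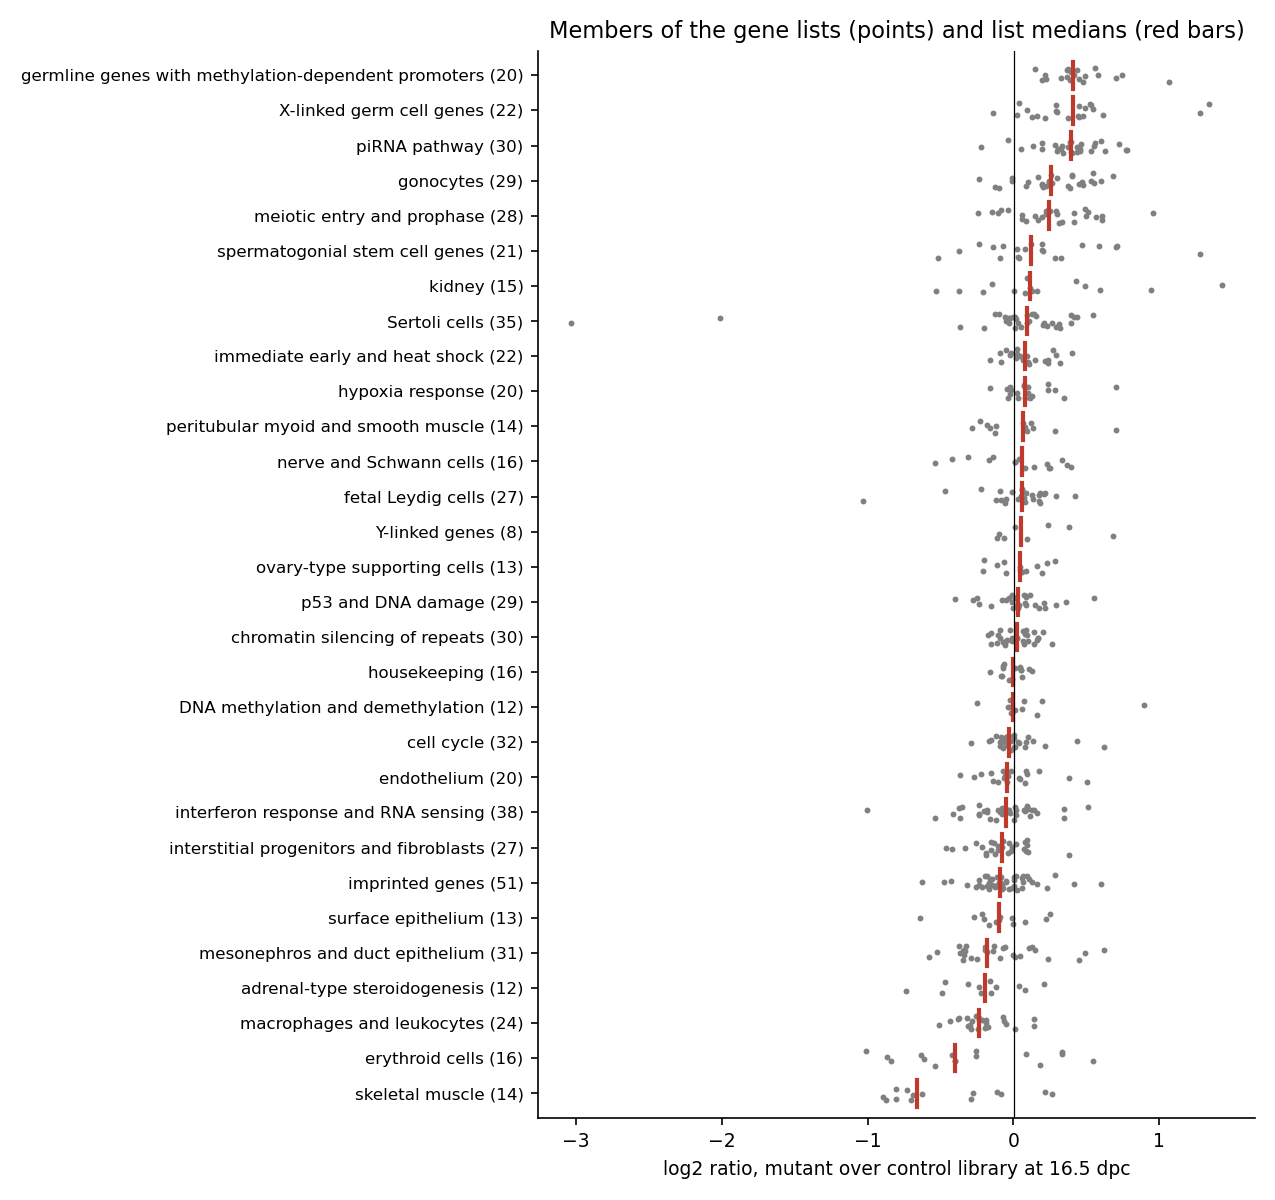
Log2 ratio of mutant over control library at 16.5 dpc for each measured member of 30 gene lists (grey points), with list medians as red bars and the number of measured members in brackets. Lists are ordered by their median. Germ cell lists lie at the top, with medians up to 0.41, and skeletal muscle, at -0.66, and erythroid cells, at -0.40, at the bottom.

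The median log2 ratios of the somatic testis cell lists in this paragraph lay between -0.10 and 0.09. That of macrophages and leukocytes, given further below, was -0.24. Sertoli cell genes were above equality in 23 of 35 cases (median log2 ratio 0.09), and Cst9 and Cst8 were the 2 of the 35 beyond 1.5-fold. Fetal Leydig cell genes had a median of 0.06: Insl3, the hormone of testis descent, had 310.7 and 232.4 normalised reads (1.34-fold higher, 1.12 to 1.60) and Cyp11b1 1093 and 1510 (1.38-fold lower, 1.28 to 1.49). Genes of interstitial progenitors and fibroblasts were below equality in 19 of 27 cases (median -0.08), with Col3a1, a fibrillar collagen, at 312737 and 337175 and Hhip, a hedgehog-binding protein, at 3545 and 4738 (1.34-fold lower). In the list of peritubular myoid cells, the contractile cells around the tubules, the median was 0.07, and Lmod1, an actin-binding protein of smooth muscle, had 317.7 and 194.8 (1.63-fold higher, 1.36 to 1.97), whereas the smooth muscle actin Acta2 had 23979 and 22742. Endothelial genes had a median of -0.04, with the VEGF receptor Kdr at 7872 and 8220 and von Willebrand factor, Vwf, at 3788 and 2666 (1.42-fold higher, 1.35 to 1.49). Surface epithelium genes had a median of -0.10, with Lrrn4 at 1252 and 1952 (1.56-fold lower, 1.45 to 1.67) and the retinoic acid-producing enzyme Aldh1a2 at 10844 and 12162 (1.12-fold lower). Housekeeping genes had a median of 0.00, with Eef1a1, a translation elongation factor, at 505899 and 528379. Cell cycle (-0.03), p53 and DNA damage (0.03), interferon response (-0.05) and repeat-silencing chromatin genes (0.02) also had medians near 0.

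Transcripts of other tissues and of blood and immune cells differed between the libraries as well, in both directions. Kidney genes were above equality in 11 of 15 cases (median log2 ratio 0.12) and nerve and Schwann cell genes in 11 of 16 (median 0.06). The lists that follow leaned lower. Skeletal muscle genes were below equality in 12 of 14 cases (median log2 ratio -0.66, summed normalised reads 2338 in the mutant and 3420 in the control), with Acta1, the muscle actin, at 251.0 and 467.2 (1.86-fold lower). Erythroid genes were below it in 11 of 16 (median -0.40, sums 25534 and 25857); the membrane protein Epb4.2 had 182.6 and 368.0 (2.02-fold lower), whereas Hbb-y, the embryonic globin, was 1.46-fold higher. Macrophage and leukocyte genes were below it in 21 of 24 (median -0.24, sums 18675 and 22173) and mesonephros and duct genes in 22 of 31 (median -0.18, sums 28766 and 32832). No member with a value was at 0 in either library, since the lowest count was 6. The part of these differences, and of the germ cell shift beside them, in one another was not tested.

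A list of liver transcripts was drawn up after the values were seen and holds 7 genes that were listed lower. Its count therefore depends in part on how it was made. Of its measured members 17 of 21 were below equality (median log2 ratio -0.89), beside 8705 of 17709 among all genes. The 7 members with at least 200 reads had a median of -0.37. Alb, serum albumin, had 226.4 and 564.0 normalised reads (2.49-fold lower, 2.14 to 2.91), and Gc, the vitamin D-binding protein, 102.7 and 231.3 (2.25-fold lower). In contrast Mpo, a granule enzyme of myeloid precursors, had 280.9 and 92.3 (3.04-fold higher, 2.38 to 3.93), while S100a8 and S100a9, of mature neutrophils, had ratios of 0.753 and 0.696.

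Rpph1, Rmrp, Lars2 and Rn45s had the largest ratios in the higher direction among named genes with at least 100 reads. Rn45s, the ribosomal RNA precursor, had 569517 and 133049 normalised reads (4.28-fold higher) and took 0.873% of gene reads in the mutant library and 0.204% in the control. Lars2, the mitochondrial leucyl-tRNA synthetase gene, whose mm10 locus also holds an rRNA-like repeat, had 161520 and 26282 (6.15-fold). The RNA components of RNase MRP and RNase P, Rmrp (337.9 and 37.6, 8.99-fold, 6.29 to 13.2) and Rpph1 (287.9 and 19.4, 14.9-fold, 9.14 to 25.8), were higher too. At 10 dpp the log2 ratios of these 4 were -0.10, -0.01, -0.40 and 0.19. Other small noncoding RNAs, looked up after these values were seen, had few reads: Snora43, with 24 and 37 reads, was 2.00-fold lower, and Terc, the telomerase RNA, and Rn4.5s, with 19 and 12 reads each, had ratios of 1.22 (0.562 to 2.76). Differences in RNA preparation between the libraries were not tested.

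The remaining named genes with the largest ratios had few reads. Higher in the mutant library were Hrk, a pro-apoptotic gene (106.2 and 30.8, 3.45-fold), Mia2, an endoplasmic reticulum exit site gene (165.9 and 49.0, 3.39-fold), Pla2g4e, a phospholipase gene (115.0 and 35.3, 3.26-fold), and Lypd4 (75.5 and 25.1, 3.01-fold). Lower were Fgf7, a fibroblast growth factor (31.6 and 115.1, 3.64-fold), Olfr1034, another olfactory receptor (36.9 and 115.1, 3.12-fold), Wfikkn1, a protease inhibitor (46.5 and 125.3, 2.69-fold), Ftcd, a liver enzyme of histidine breakdown (34.2 and 85.5, 2.50-fold), and Ankrd1, a muscle stress protein (51.8 and 117.4, 2.27-fold). Pla2g4e, Fgf7 and Olfr1034 are on chromosome 2.

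Imprinted genes, of which some depend on paternal marks set in fetal male germ cells, were below equality in 34 of 51 cases (median log2 ratio -0.09). The maternally expressed noncoding RNAs of the Dlk1-Dio3 domain on chromosome 12 were the lowest of the abundant ones. Meg3 had 54605 and 84392 normalised reads (1.55-fold lower, 1.53 to 1.56) and Rian 49103 and 68163 (1.39-fold lower, 1.37 to 1.40). H19, another maternally expressed noncoding RNA and the most read of the list, had 172903 and 197502 (1.14-fold lower). At 10 dpp the log2 ratios of Meg3, Rian and H19 were -0.10, -0.15 and -0.12. At 20 dpp all 3 were higher in both mutants than in both controls, by mean log2 differences of 1.86, 1.01 and 1.09. These differences were not tested here. The mutants had 8556 and 6557 normalised reads of Meg3 against 1768 and 2405 for the controls. Rian had 3266 and 2392 against 1361 and 1406, and H19 1348 and 1505 against 743.6 and 599.0. Somatic lists were higher there too, with median log2 changes of 0.91 for Sertoli cell genes and 0.68 for genes of interstitial progenitors and fibroblasts. The median was 0.49 for the imprinted genes, -0.21 for the 5 germ cell lists and 0.08 for all genes. The part of cell composition in these values was not tested.

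Of the 130 genes listed at 16.5 dpc, 100 had values at 10 dpp, where 154 of 17376 were listed (0.886%), and 5 were listed in the same direction at both ages, which is 3.85% of the first list and 3.25% of the second. Cst9, Cst8 and Cst11 were lower at both. The gene model 2010005H15Rik (128.1 and 63.8 at 16.5 dpc, 2.01-fold) and Tgm3, a transglutaminase on chromosome 2 (33.4 and 13.7, 2.44-fold), were higher at both. Another 3 were listed in opposite directions.

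Among repeat families, 1 was listed higher (0.124%) and 3 lower (0.372%), which is 0.496% together. Families leaned slightly lower as a whole, with a median log2 ratio of -0.09 and 254 of 806 above equality. Some families of the group called young LINE-1 here hold copies that can still transpose in the mouse and that later germ cells keep silent by methylation. The families of this group lay around equality. L1Md_T had 88633 normalised reads in the mutant library and 88525 in the control (1.00-fold, 0.992 to 1.01), L1Md_A 24779 and 25892 and L1Md_F2 50999 and 51170. L1Md_Gf (1102 and 973.0, 1.13-fold higher), L1_Mm (2878 and 2281, 1.26-fold higher), L1Md_F (3403 and 3196) and L1Md_F3 (31141 and 33190) were also within 1.5-fold. The median log2 ratio of these 7 was 0.00, and they held 10.2% of family reads in the mutant library and 9.81% in the control.

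IAP families, the retroviruses to which the insertion belongs, were above equality in 20 of 25 cases, with a median log2 ratio of 0.19 beside -0.09 for all families. Of the 3 IAP families with most reads, IAPEz-int, the internal part of the main family, had 156483 and 148380 (1.05-fold higher), IAPEY4_I-int 50126 and 55772 (1.11-fold lower), and IAP1-MM_I-int 2579 and 1757 (1.47-fold higher, 1.38 to 1.56). No IAP family of the 25 passed the 1.5-fold rule, which 6 families in all passed in the higher direction (0.744%) and 14 in the lower (1.74%), 2.48% together. MMERVK10C-int, the internal part of another endogenous retrovirus, had 14305 and 11877 (1.20-fold higher, 1.18 to 1.23), and 8 of the 11 families of its group were above equality (median 0.11). All 8 MERVL and MT2 families were below equality (median -0.14), as were all 15 B1 SINE families (median -0.18), beside 552 of all 806 families (median -0.09). MERVL-int had 15541 and 15732. The non-autonomous SINEs B2_Mm2 (33668 and 38089) and B1_Mus1 (12529 and 14052) were 1.13-fold and 1.12-fold lower.

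ERVB4_1-I_MM, the internal part of an endogenous retrovirus of the K class, was the most deviant abundant family. It had 6123 normalised reads in the mutant library and 22775 in the control (3.72-fold lower, 3.62 to 3.82), and it was 3.12-fold lower at 10 dpp. At 20 dpp the mutants, at 7988 and 11948, were also below the controls, at 19081 and 16472. ERVB4_1B-LTR_MM, a related long terminal repeat, had 255.4 and 556.0 (2.18-fold lower, 1.88 to 2.53) and was lower at 10 dpp but higher in both mutants at 20 dpp. The related ERVB4_1B-I_MM had 40098 and 38142 (1.05-fold higher). The other listed families, RLTR19D (40 and 14 reads, 2.20-fold higher) and Tigger1a_Art, a DNA transposon (2.78-fold lower), had few reads. The further families with the largest ratios at 50 reads or more were likewise small: RLTR44C (65.8 and 35.3, 1.86-fold higher) and RLTR10D2 (69.3 and 38.7, 1.79-fold higher), both long terminal repeats, led those above equality, and Tigger6b (17.6 and 34.2, 1.95-fold lower) and MER90 (21.9 and 38.7, 1.77-fold lower) those below it. Copies of related families can share reads, and which genomic copies gave these reads was not analysed here.

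**Figure D5:**
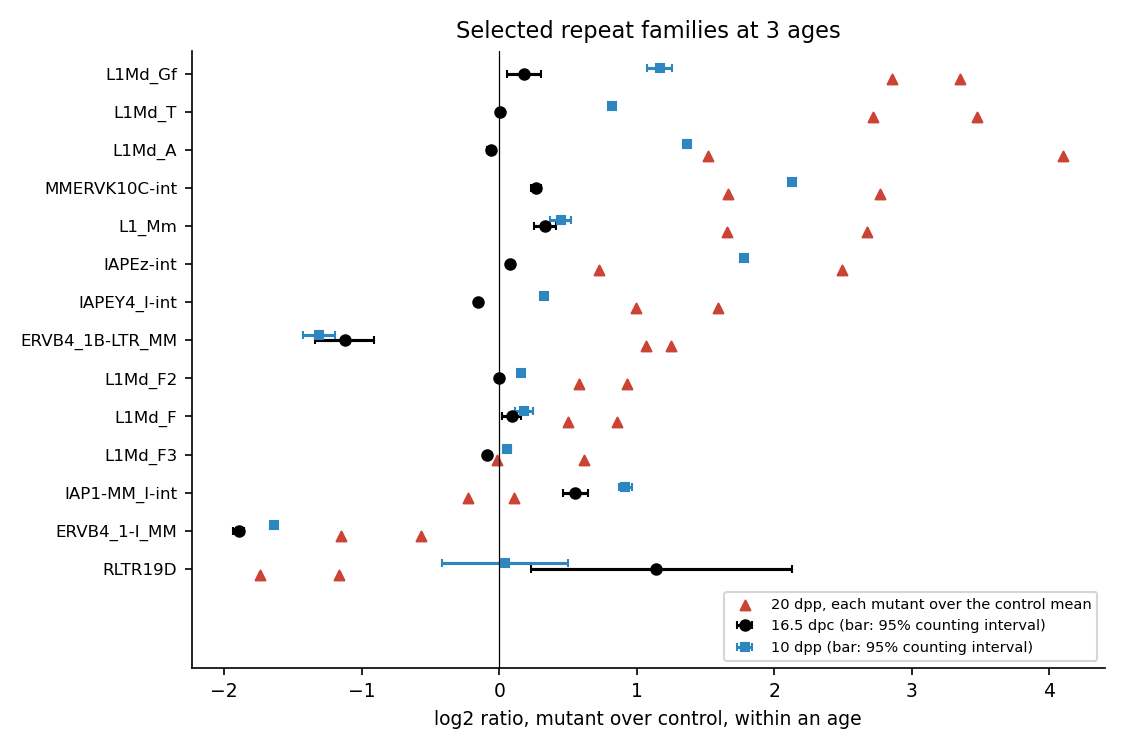
Log2 ratio of mutant over control within each age for 14 repeat families: the 7 young LINE-1 families, the 3 IAP families and 1 MMERVK10C family with most reads, and the listed families with values at 20 dpp. Circles (16.5 dpc) and squares (10 dpp) carry 95% counting intervals, and triangles are each 20 dpp mutant over the geometric mean of the controls. L1Md_T, L1Md_A and IAPEz-int lie near 0 at 16.5 dpc and to the right at both later ages, and ERVB4_1-I_MM lies to the left at all 3 ages.

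Whether the genotype change differed between 16.5 dpc and 20 dpp was tested for families with limma on 6 libraries, in which the lone libraries at 16.5 dpc were assumed to vary like the replicates at 20 dpp. Of 795 families, 17 passed at a Benjamini-Hochberg adjusted p under 0.05 (2.14%), 4 with a higher log2 ratio of mutant over control at 20 dpp than at 16.5 dpc (0.503%) and 13 with a lower one (1.64%). The log2 ratio of L1Md_T was higher by 3.10 at 20 dpp (SE 0.44, adjusted p = 0.0178 from limma), where the mutants had 883192 and 523188 normalised reads and the controls 89840 and 70086. That of L1Md_Gf was higher by 2.92 (SE 0.40, limma adjusted p = 0.0178) and that of ERVB4_1B-LTR_MM by 2.28 (SE 0.29, limma adjusted p = 0.0135). L1Md_A, at 2.87 (SE 1.19, limma adjusted p = 0.354), MMERVK10C-int, at 1.95 (SE 0.53, 0.157), and IAPEz-int, at 1.53 (SE 0.83, 0.454), did not pass; their mutants at 20 dpp were far apart, with 614653 and 102652 for L1Md_A. Without a trend in the prior spread 0 families passed in limma, although 148 had an unadjusted p under 0.05, and L1Md_T missed the threshold without control replicate 2 (adjusted p = 0.0526, in a range of 1.24e-15 to 0.104 over its alternatives). Levels do not compare across ages, since each age was scaled on its own.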

How the data were processed

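The authors deposited log2 values per gene and per repeat family for each library, without headers. Each is the log2 of 1 plus a read count scaled by a library factor. Undoing this gave read counts within 0.01 of a whole number for 100% of values, with factors that matched median-of-ratios factors within each age. The submitters' processing notes list the build mm10 and the tools Bowtie 1.0.0, HTSeq 0.6.1 and TopHat2 2.0.6 without saying what each did. Strand setting and the handling of reads with many matches are not stated in any source used. One read was worth 0.878 normalised reads in the mutant library and 1.14 in the control library at 16.5 dpc.

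Ratios of normalised reads have exact conditional binomial 95% intervals (SciPy 1.17.1), which cover counting error only. On pairs simulated with counting error only, the rule listed 7 of 17509 unchanged genes. The simulation held no spread between libraries, so it gives no rate of false listing for real pairs. Between replicates at 20 dpp the rule listed 6.67% of genes in the mutants and 5.52% in the controls. The difference between ages used limma 3.58.1 in R 4.3.3 on log2 values with a pseudocount of 1, with genes and families in 1 fit (eBayes with a trend) and adjustment over families. Replicates at 20 dpp are not stated to be separate animals, so p-values measure the spread between these libraries. GENCODE M21 and RefSeq GRCm38.p6 gave coordinates for 17644 genes.

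The members, the 31 gene lists (30 with measured members) and the 15 repeat groups were chosen with earlier results of these data known. Named genes were drawn from the measured DNA methylation genes (1 is not reported here), the 10 largest listed ratios each way with at least 100 reads (predicted models left out), and per list the most read member and the 2 with the largest ratio at 200 reads or more. Named families were drawn from young LINE-1, the 3 most read per group and the largest ratios. Not every gene or family that these rules select is printed. Other members were named after their values were seen.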

Additional observations from a re-analysis of the deposited data

Results flagged for a closer look

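The genotype change differed between ages for 3 of the families named, by the limma test of the difference. L1Md_T changed by 3.10 more on the log2 scale at 20 dpp than at 16.5 dpc, L1Md_Gf by 2.92 more and ERVB4_1B-LTR_MM by 2.28 more, the last of these going from 2.18-fold lower at 16.5 dpc to higher in both mutants at 20 dpp.

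The direction at 16.5 dpc was opposite to that at 10 dpp for 3 listed genes, and this difference was not tested, with 1 library per genotype at each age. Rps15a-ps6, a ribosomal protein pseudogene, had a log2 ratio of -1.68 at 16.5 dpc (412.5 and 1325 normalised reads) and 2.59 at 10 dpp. Trim34b, an antiviral TRIM family gene with close paralogs, had -1.09 at 16.5 dpc and 1.95 at 10 dpp. The gene model Gm15133 had 1.14 and -1.18.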

How the results depend on the processing

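The number of listed genes followed the rule more than the scale. The 130 listed genes became 64 with a pseudocount of 10 normalised reads, 583 at 1.5-fold, 23 at 3-fold, 229 with no minimum of reads and 28 with at least 200 reads. On chromosome 2 the 25 became 14, 66, 8 and 9 with the pseudocount of 10, 1.5-fold, 3-fold and 200 reads. Genes listed the same way at 10 dpp became 33 at 1.5-fold, 2 at 3-fold, 9 with no minimum and 2 with 200 reads. The 4 listed families became 20 at 1.5-fold, 1 at 3-fold, 11 with no minimum and 2 with 200 reads. The germ cell median of 0.31 ranged from 0.29 to 0.40 over its 6 alternatives, and no named ratio of a listed feature reversed under another scale or pseudocount. Scaling by the families raises every log2 ratio by 0.09.

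For the difference between ages, the 17 families became 0 without a trend in limma (148 at an unadjusted p under 0.05), 70 with families fitted apart from genes (infinite prior) and 112 with total gene reads as the scale (99 of them with a higher log2 ratio at 20 dpp). Leaving out 1 of the 20 dpp libraries gave 6 to 30, with the lone library assumed to vary like the others: 6 without control replicate 1 or 2, 30 without mutant replicate 1 and 26 without mutant replicate 2. A replicate block gave 18 families; same-numbered replicates did not deviate together (correlation of the replicate differences 0.02), so the numbers were not taken as pairs. The causes were not tested. With 1 library per genotype at 16.5 dpc, the spread between libraries of 1 genotype could not be measured, and differences cannot be told from it. For genes with at least 10000 reads, the SD across genes of the log2 ratio of mutant over control was 0.13, where counting gives 0.02. This SD holds any genotype difference too. Between replicates at 20 dpp, the SD of log2 ratios over all genes was 0.62 for the mutants and 0.52 for the controls.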

Other observations

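Among the families whose log2 ratio was lower at 20 dpp than at 16.5 dpc, IAPLTR3-int had a log2 ratio of 0.19 at 16.5 dpc and -2.43 at 20 dpp (limma adjusted p = 0.0135), and RLTR13D6 had -0.20 and -2.97 (limma adjusted p = 0.0135). Both were named after their values were seen.

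Y-linked genes were close to equality at 16.5 dpc, with 5 of 8 above it and a median log2 ratio of 0.05. Ddx3y, an RNA helicase gene with the most reads of the list, had 11150 and 11653 normalised reads, and Usp9y, a deubiquitinase gene, had 903.1 and 695.0 (1.30-fold higher, 1.17 to 1.44).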
